A study of Mus musculus with 4 samples.

Results

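A set of 45 genes that move, make or burn lipids and cholesterol was followed through the open chromatin of large peritoneal macrophages (LPMs), the resident macrophages of the mouse peritoneal cavity, with and without the nuclear receptors RXRα and RXRβ. The genes were taken as a named list of lipid and cholesterol handlers, 45 of the 24963 genes with a curated transcript on chromosomes 1 to 19. No accessibility value of these libraries entered the rule, but the list was chosen with earlier results of these data known. Of 70744 open regions merged over 4 ATAC-seq libraries, 280 were linked to a member, 251 because the member had the nearest transcription start site (TSS) and 29 because they lay in its gene body. ATAC-seq reads where the transposase Tn5 can cut, so a region stands for accessible DNA and not for transcription. The 4 libraries came from 2 groups of C57BL/6 mice at 9 weeks of age: 2 RXRabfl/fl libraries (Rxrab fl/fl replicates 1 and 3, below WT1 and WT3 as titled), in which Rxra and Rxrb carry loxP sites and are intact, and 2 LysMCre+RXRabfl/fl libraries (LysMCre+ Rxrab fl/fl replicates 1 and 2, below KO1 and KO2, with WT and KO for the groups), in which Cre driven by the lysozyme M gene deletes both in myeloid cells. Both groups carry the floxed alleles, and both were sequenced in library batch 1 from 40000 sorted LPMs a library. The labels do not say how many animals a library holds, so the spread between libraries may be partly technical. A smaller share of cells with an open region and a less open region in every cell cannot be told apart in such pools.

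RXRs bind DNA as partners of other nuclear receptors. With liver X receptors (LXRs), which sense oxysterols, they occupy direct repeats spaced by 4 bases (DR4 elements) at genes of cholesterol efflux and fatty acid synthesis; with PPARs, which sense fatty acids, they occupy repeats spaced by 1 base (DR1 elements) at genes of fatty acid uptake, storage and oxidation. Cholesterol synthesis is driven by a separate factor, SREBP2, which is released from the endoplasmic reticulum when sterols are scarce and binds sterol regulatory elements (SREs), often beside a CCAAT box held by NF-Y. Macrophages take up modified lipoproteins and dying cells through scavenger receptors, so export, esterification and burning of the load are textbook macrophage tasks.

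The libraries differed in how many regions they called, and this bears on every count. Peaks numbered 38048 and 16097 in WT1 and WT3, and 65421 and 55581 in KO1 and KO2. WT3 stood apart, with a median summit pileup (the number of extended reads over the highest point of a peak) of 20 over the regions called in all 4 libraries, against 97, 99 and 65 in the others. Member regions were called in 167 and 82 of 280 in WT and in 252 and 229 in KO. The libraries of the groups did not overlap (means of 124.5 and 240.5 regions), but an exact two-sided permutation test with 2 libraries against 2 cannot go below p = 0.333, the value found. Promoters of LPM markers (Gata6, Icam2, Timd4 and 5 others) were called at 8 and 5 of 8 genes in WT and at 8 and 8 in KO. Those of a list for small peritoneal macrophages or monocytes were called at 3 and 1 of 8 against 7 and 6 (Ccr2 at none in any library), those of a general macrophage list at 6 and 6 against 8 and 8 of 8. B cell markers were called at 1, 0, 1 and 1 of 8 (Ebf1; Cd79a and Ms4a1 at none), T cell markers at 0 of 7 in every library and mast cell or granulocyte markers at 1, 0, 1 and 1 of 8 (S100a8). The small peritoneal macrophage list thus moved with genotype and with depth, and the general macrophage list was higher in both KO libraries. The LPM list was lower in WT3 alone. Over all genes a promoter region was called at 49.1% and 35.9% in WT1 and WT3, and at 55.4% and 52.9% in KO1 and KO2. The part of these lists in the member results was not tested. Peaks at Rxra (26 regions; 14 in WT1, 6 in WT3, 25 in KO1 and 22 in KO2) do not report on the loss of the floxed exons, which was not checked here.

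Short elements in the member regions are shown first, because they are what RXR partners and SREBPs bind. Each was looked for on both strands in the 201 bases about the strongest summit of a region. The DR4 element matched 7 of 280 member regions (2.50%) against 182 of 70744 regions in all (0.257%); the 7 lay at Abca1 (2 regions), Abcg1, Lpl, Scd1, Scd2 and Srebf2. The DR1 element matched 0 of 280, against 0.164% of all regions, and a missing match says only that those letters are not in this window. The DR1 pattern was the stricter of these repeats, because its half-sites were allowed fewer letters than those of DR4. The shares of DR4 and DR1 therefore cannot be compared with each other. A pattern as rare as DR1 can be missing from 280 regions through its rarity alone, so no conclusion is drawn about DR1 elements at the members. The 4 DR4 regions that were called in all 4 libraries are written below on the strand of the gene, from GRCm38.p6, with the DR4 in capitals.
Abca1, 1.1 kb downstream (chr4:53158710-53158910, minus strand): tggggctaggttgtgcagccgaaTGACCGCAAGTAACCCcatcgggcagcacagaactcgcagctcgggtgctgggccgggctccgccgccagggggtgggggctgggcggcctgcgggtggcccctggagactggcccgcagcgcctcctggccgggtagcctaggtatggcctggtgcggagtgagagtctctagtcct
Lpl, 73.6 kb downstream (chr8:68954131-68954331, plus strand): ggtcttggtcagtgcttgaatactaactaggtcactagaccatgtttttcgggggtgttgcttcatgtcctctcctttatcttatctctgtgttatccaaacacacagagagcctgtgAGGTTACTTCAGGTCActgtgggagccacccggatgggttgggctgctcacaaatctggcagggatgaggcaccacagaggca
Scd1, 19.01 kb downstream (chr19:44388523-44388723, minus strand): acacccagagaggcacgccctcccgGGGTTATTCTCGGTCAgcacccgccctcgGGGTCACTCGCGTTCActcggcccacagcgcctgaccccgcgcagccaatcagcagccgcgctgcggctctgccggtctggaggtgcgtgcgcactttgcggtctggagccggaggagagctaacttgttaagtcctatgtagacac
Scd2, 9.4 kb upstream (chr19:44284186-44284386, plus strand): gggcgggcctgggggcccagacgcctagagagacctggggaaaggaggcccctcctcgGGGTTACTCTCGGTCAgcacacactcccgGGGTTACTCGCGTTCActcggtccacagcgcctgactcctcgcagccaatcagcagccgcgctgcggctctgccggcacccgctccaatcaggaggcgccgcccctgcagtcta
The Scd1 and Scd2 regions each held 2 DR4 matches and shared an unbroken run of 36 bases, and reads that lie wholly within that run cannot be told apart. Scd1 and Scd2 encode stearoyl-CoA desaturases, which put the double bond into saturated fatty acids.

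The SRE (TCACNCCAC) matched 7 member regions (2.50%) against 0.920% of all regions. At the promoters of the synthesis genes it matched 3 of 17 regions (17.6%) against 0.705% of all regions at promoters. CCAAT matched 15 of the 17 (88.2%), against 28.5% of all promoter regions and 40% of the 15 promoter regions of the storage and oxidation genes. The 17 windows had a median GC content of 68.2%, against 64.7% at all promoters. A pair of promoters with an SRE, those of Hmgcs1 and Srebf1, are written below in the same way, with the SRE in capitals.
Hmgcs1, promoter (chr13:119690054-119690254, plus strand): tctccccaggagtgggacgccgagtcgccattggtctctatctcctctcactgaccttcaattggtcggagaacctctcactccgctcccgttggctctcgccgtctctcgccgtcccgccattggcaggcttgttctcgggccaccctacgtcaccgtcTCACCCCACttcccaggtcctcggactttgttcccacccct
Srebf1, promoter (chr11:60222802-60223002, minus strand): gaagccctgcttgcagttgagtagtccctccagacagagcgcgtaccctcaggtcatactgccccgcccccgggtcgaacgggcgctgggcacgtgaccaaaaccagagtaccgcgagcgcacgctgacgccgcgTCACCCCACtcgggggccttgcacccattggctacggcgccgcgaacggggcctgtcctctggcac
Hmgcs1 makes HMG-CoA for the sterol pathway, and Srebf1 encodes SREBP1. Both regions were called in every library. The PU.1 site (GAGGAAGT) matched 10.0% of member regions and 9.30% of all, and the AP-1 site (TGANTCA) 15.7% and 12.7%.

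Every member had an open region in both genotypes. The number per gene ran from 1 (Apoc1, Angptl4, Sqle, Idi1, Dgat1 and Acadm) to 21 at Abca1, with a median of 5. The cholesterol exporters Abca1 and Abcg1 (17 regions), the HDL receptor gene Scarb1 (16) and the scavenger receptor gene Marco (13) had the most. Introns held 127 of the 280 regions, intergenic DNA 97 and promoters 43, with a promoter taken as the stretch that starts 1 kb before a TSS and ends 200 bp after it. A region was called in all 4 libraries at 80 of 280 places (28.6%), against 21.5% of all merged regions. It was called in both KO libraries and neither WT library at 62 (22.1%), against 22.8% of all, and in both WT libraries alone at 0, against 0.0452%. The share found only in KO lay near that of all regions, as did the 70 regions (25.0%, against 25.5%) missed by WT3 alone. A further 61 regions (21.8%, against 26.9% of all) were called in 1 library. Without WT3 the count found only in KO stayed at 62, and that found only in WT became 10. Without WT1 the first became 132, and without KO2 it became 97. Shares over all regions were not computed with a library left out, so these counts are not read as a result about the members.

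**Figure D1:**
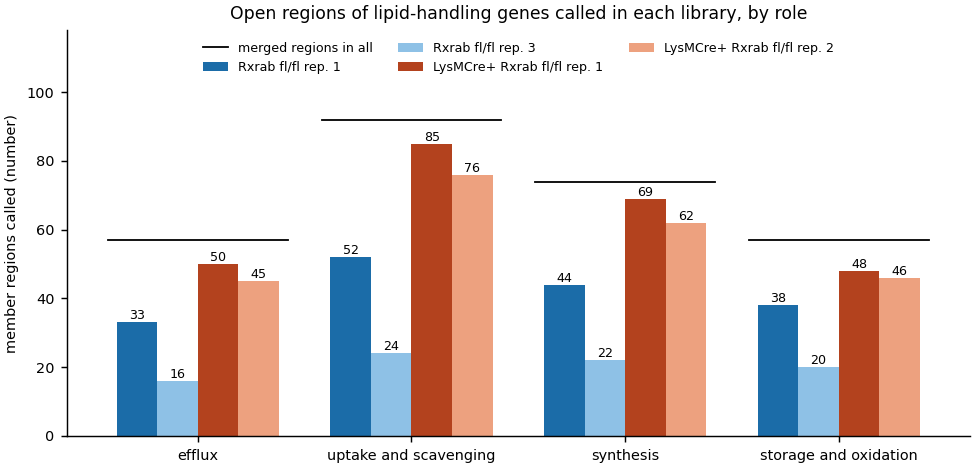
Number of member regions called (vertical axis) in each library, by role of the gene; the line over each group is the number of merged regions of that role. In all 4 roles Rxrab fl/fl replicate 3 called the fewest, for example 24 of 92 uptake and scavenging regions, and LysMCre+ Rxrab fl/fl replicate 1 the most, 85 of 92.

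**Figure D2:**
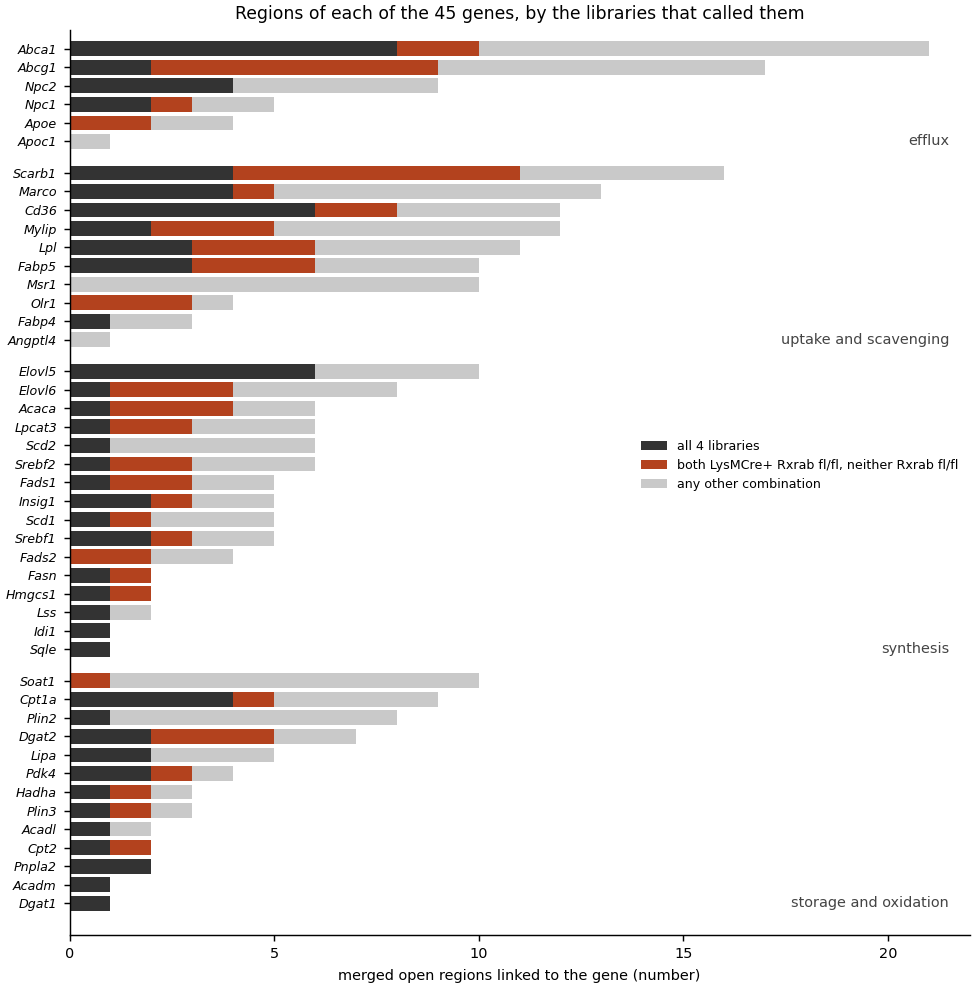
Number of merged regions linked to each of the 45 genes, split by the libraries that called them. Abcg1 and Scarb1 each have 7 regions (of 17 and 16) seen in KO1 and KO2 alone, against 22.8% of all regions. Msr1 has 10 regions of which none was called in all 4.

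Because the libraries differed in peak number, the same number of peaks, the 16097 of lowest q, was also taken from each library. This left 116 member regions. Of these, 52 were called in all 4, 7 only in KO (6.03%, against 7.82% of all 22300 regions) and 12 only in WT (10.3%, against 7.22%). The 12 lay at 8 genes, and 4 of them at Cd36, 2 at Pdk4 and 1 each at Marco, Npc2, Fabp4, Fabp5, Hadha and Dgat2. The 7 lay at Soat1, Abcg1, Scd1, Fabp5, Scarb1, Msr1 and Elovl5. By role, the uptake and scavenging genes gave 7 regions only in WT and 3 only in KO, the storage and oxidation genes 4 and 1, the synthesis genes 0 and 2, and the efflux genes 1 and 1. Of the 26 synthesis regions left, 19 (73.1%) were called in all 4 libraries, against 7 of 39 (17.9%) for uptake and scavenging and 46.1% of all regions.

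Promoters of the list were open in nearly all libraries. A promoter region was called at 42, 32, 43 and 43 of the 45 members in WT1 and WT3 and KO1 and KO2, which was 93.3, 71.1, 95.6 and 95.6%, against 49.1, 35.9, 55.4 and 52.9% of all genes. The same region was called in all 4 libraries at 32 members (71.1%, against 35.8% of all genes). Acaca and Elovl6 had no promoter region, and Fads2 had one only in KO. Storage and oxidation promoters were called in all 4 libraries at 12 of 13 genes (Soat1 was missed by WT3), synthesis promoters at 11 of 16, uptake and scavenging promoters at 6 of 10 and efflux promoters at 3 of 6.

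**Figure D3:**
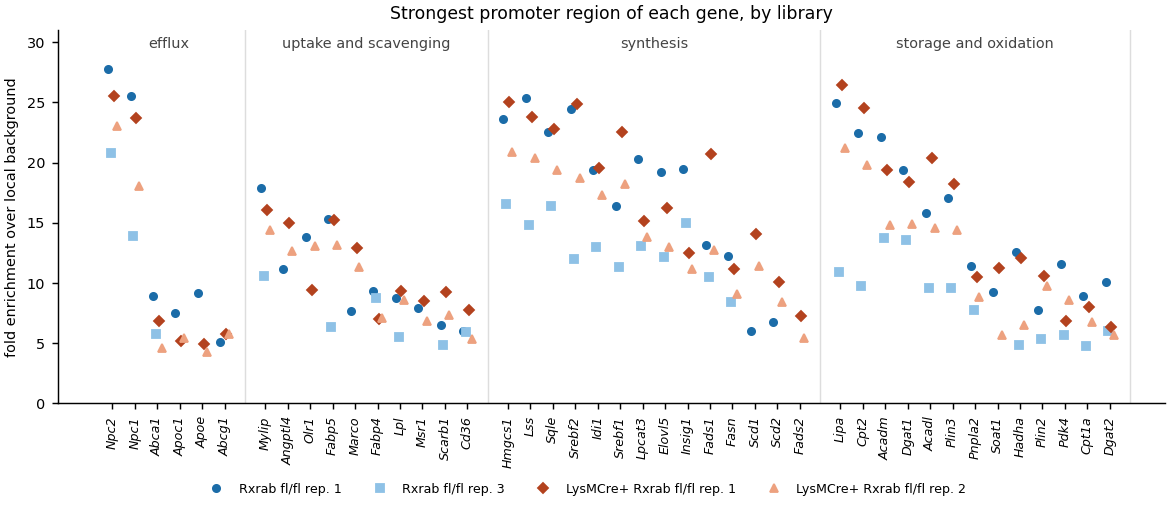
Fold enrichment over local background at the summit (vertical axis) of the strongest promoter region of each of the 43 members with one, by library; a missing symbol means that the library did not call the region. Npc2 sits near the top in every library (27.8, 20.8, 25.5 and 23.0), and at Lipa the symbol of Rxrab fl/fl replicate 3 (10.9) lies far below the other 3.

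Accessibility was then compared between the genotypes at the regions called in all 4 libraries, on 2 measures. The first was the fold enrichment of a peak's summit over its local background, and the second the summit pileup, solved from the fold enrichment and its p-value; both were centred on the library's median and tested with limma, and a region was called where its log2 fold change passed 1 either way at an adjusted p under 0.05. On fold enrichment none of the 80 member regions passed, against 0.0395% of 15199 regions higher and 0.0461% lower in KO. At an unadjusted p under 0.05 there were 11 of the 80 (limma on fold enrichment), against 22% of all regions, and the lowest adjusted p was 0.0683. The median log2 fold change of the 80 was −0.18, against −0.09 over all regions, with 54 below 0 and 26 above. Both KO libraries lay below both WT libraries at 29 of the 80 (36.25%, against 32.9%) and above them at 12 (15.0%, against 22.3%). On summit pileup 4 of the 80 passed as lower, against 4.98% of 15196 regions, and 0 as higher, against 2.49%. At an adjusted p under 0.05 alone, whatever the fold, 7 were lower, against 7.90%, and 1 higher, against 4.03% (limma on pileup). The sign of the difference was not the same on both measures at 19 of the 80 regions, against 23.6% of all regions. The groups did not overlap at 33 regions that were lower (41.25%, against 36.9%) and at 21 that were higher (26.25%, against 25.2%). The number of calls on pileup moved when a library was left out, and no share over all regions was computed for those fits. The 4 regions that passed stayed lower in each. Those at the Pdk4 promoter, Marco and Lpl no longer passed without KO1 or without KO2. Over the fits, log2 fold changes ran from −2.52 to −1.83 at Pdk4 13.7 kb upstream and −1.72 to −0.93 at its promoter. They ran from −1.88 to −1.04 at Marco 19.3 kb upstream and −1.78 to −1.05 at Lpl 31.6 kb upstream. Without WT3, 150 regions could be fitted in place of 80. The lone library of a genotype was then taken to vary like the others. Without WT3 the passing member regions had the same SE on pileup (0.39), so no spread of a single region entered it.

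**Figure D4:**
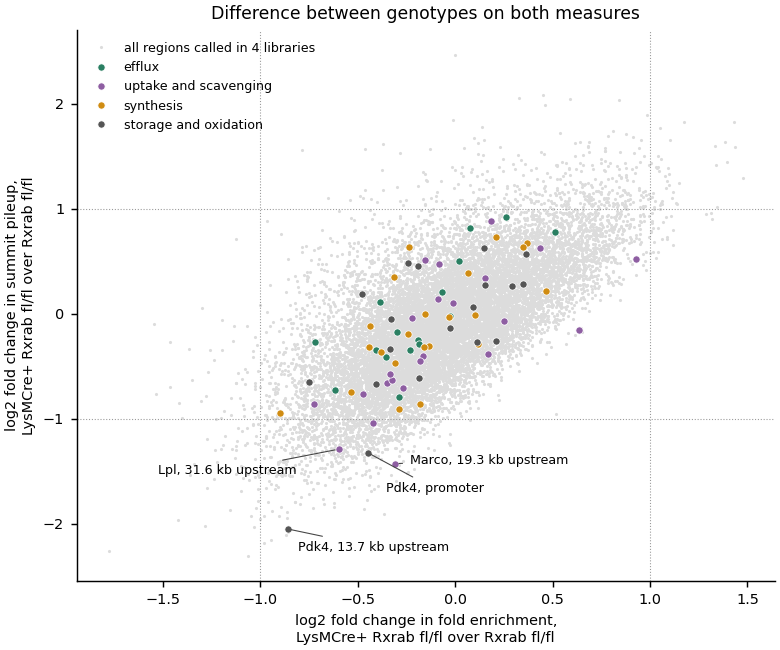
Log2 fold change between genotypes in fold enrichment (horizontal axis) and in summit pileup (vertical axis); grey dots are all regions called in 4 libraries, coloured dots the 80 member regions by role, dotted lines a log2 fold change of −1 and 1. The 4 labelled regions passed the test on pileup, and none of the coloured dots lies beyond a dotted line on fold enrichment.

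Pdk4, whose product shuts off pyruvate dehydrogenase and turns cells toward fatty acid oxidation, held 2 of the 4 regions that fell in KO on summit pileup. At the region 13.7 kb upstream (chr6:5509748-5510229) the summit pileup was 91 and 17 in WT and 25 and 12 in KO, or 0.938, 0.85, 0.253 and 0.185 times the library median. Both KO libraries were low, and the groups did not overlap. The log2 fold change was −2.05 ± 0.24 (SE, n = 2 a group; limma adjusted p = 0.0183), the most negative of the members. On fold enrichment (17.4, 7.96, 11.2 and 6.25) it was −0.86 ± 0.23 with an adjusted p of 0.0804 by limma. At the Pdk4 promoter (chr6:5496013-5496810) the pileup was 40 and 12 against 15 and 17, or 0.412, 0.6, 0.152 and 0.262 times the median. Those libraries also did not overlap after centring, with a log2 fold change of −1.32 ± 0.31 (limma adjusted p = 0.0334). Without WT3 the upstream region passed on fold enrichment as well, at −1.28 (limma adjusted p = 0.0364), and without KO2 it did not pass on pileup (−1.83, limma adjusted p = 0.0945). Of the other Pdk4 regions, one 93.6 kb upstream was called only in KO (pileup 12 and 13) and one 86.9 kb upstream only in WT3 (9).

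The other 2 regions that fell lay upstream of uptake genes. Marco encodes a collagen-like scavenger receptor for bacteria and modified lipoproteins. Its region 19.3 kb upstream (chr1:120524076-120524668) had a pileup of 114 and 22 in WT against 32 and 36, or 1.18 and 1.1 against 0.323 and 0.554 times the median, and fell by 1.43 on the log2 scale (SE 0.28, limma adjusted p = 0.0242). Fold enrichment at the same place was 13.5, 7.06, 9.54 and 10.9, a log2 fold change of −0.31 (limma adjusted p = 0.443), so the 2 measures gave a different size. Lpl encodes lipoprotein lipase, which frees fatty acids from lipoproteins. Its region 31.6 kb upstream (chr8:68848797-68849089) was weak in every library, with a pileup of 22, 9, 11 and 10, or 0.227, 0.45, 0.111 and 0.154 times the median, and fell by 1.29 (SE 0.34, limma adjusted p = 0.042). Only after division by the median were both KO libraries the lower ones. On fold enrichment the log2 fold change was −0.60 (limma adjusted p = 0.151). Only regions called in all 4 libraries were tested. A called pileup of 8 was 0.0808 times the median in KO1 (Marco, 63.3 kb downstream) and 0.4 times in WT3 (Elovl5, 58.8 kb upstream). A weak region thus needed a higher centred pileup in WT3 than in KO1 to be tested, and its part in this fall was not tested. The 201 bases about the strongest summit of these 4 regions are written below on the strand of the gene, with every match to the SRE, CCAAT, DR4, DR1, PU.1 or AP-1 patterns in capitals.
Pdk4, 13.7 kb upstream (chr6:5509863-5510063, minus strand): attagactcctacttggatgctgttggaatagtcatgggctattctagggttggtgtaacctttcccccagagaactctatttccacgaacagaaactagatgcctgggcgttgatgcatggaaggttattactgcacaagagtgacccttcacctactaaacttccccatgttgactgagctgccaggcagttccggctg
Pdk4, promoter (chr6:5496289-5496489, minus strand): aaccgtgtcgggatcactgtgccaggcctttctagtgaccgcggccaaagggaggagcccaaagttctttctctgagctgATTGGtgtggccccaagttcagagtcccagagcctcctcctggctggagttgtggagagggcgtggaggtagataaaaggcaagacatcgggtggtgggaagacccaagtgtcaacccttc
Marco, 19.3 kb upstream (chr1:120524220-120524420, minus strand): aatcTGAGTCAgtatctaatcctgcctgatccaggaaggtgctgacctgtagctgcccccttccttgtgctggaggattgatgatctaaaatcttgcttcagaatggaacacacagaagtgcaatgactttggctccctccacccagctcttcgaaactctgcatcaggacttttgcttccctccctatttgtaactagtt
Lpl, 31.6 kb upstream (chr8:68848849-68849049, plus strand): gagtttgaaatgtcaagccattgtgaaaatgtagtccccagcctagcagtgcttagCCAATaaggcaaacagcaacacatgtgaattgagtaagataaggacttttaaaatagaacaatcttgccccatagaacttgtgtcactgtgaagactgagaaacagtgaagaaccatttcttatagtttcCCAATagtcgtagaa
The region upstream of Pdk4 held no match, the Pdk4 promoter 1 CCAAT, the Marco region 1 AP-1 site and the Lpl region 2 CCAAT. None of the 4 windows held an exact match to the DR4, DR1 or SRE letters. Near matches were not looked for, so weaker elements of these kinds may be present.

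**Figure D5:**
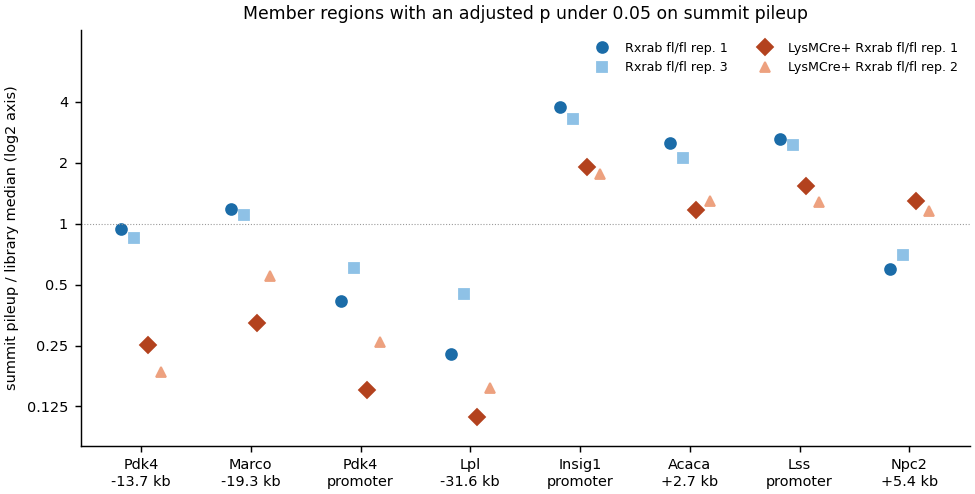
Summit pileup over the library's median (vertical axis, log2 scale) in each library for the 8 member regions with an adjusted p under 0.05 on pileup (7 lower, against 7.90% of all regions, and 1 higher, against 4.03%); distances are from the TSS, negative upstream. In 7 regions both Rxrab fl/fl symbols lie above both LysMCre+ Rxrab fl/fl symbols, and in the Npc2 region 5.4 kb downstream they lie below.

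Cholesterol leaves macrophages through the transporters ABCA1, which loads lipid-poor apolipoprotein A-I, and ABCG1, which loads HDL. No efflux region passed the test on fold enrichment or pileup, of the 16 tested. On pileup 4.98% of all regions passed as lower and 2.49% as higher. The Abca1 promoter (chr4:53159669-53160251) had a fold enrichment of 8.96 and 5.79 in WT against 6.86 and 4.64, or 0.618, 0.770, 0.453 and 0.386 times the library median. Both KO libraries were the lower ones after centring, with a log2 fold change of −0.72 ± 0.22 (limma adjusted p = 0.0983). On pileup (134, 26, 128 and 62) the difference was −0.27 (limma adjusted p = 0.459). The Abca1 region 1.1 kb downstream, which carries the DR4 shown above, had a pileup of 100 and 21 against 175 and 80, or 1.03, 1.05, 1.77 and 1.23 times the median. Here both KO libraries were higher, with a log2 fold change of 0.50 ± 0.25 that did not pass (limma adjusted p = 0.19), and on fold enrichment they overlapped (0.02). Of the 21 Abca1 regions, 8 were called in all 4 libraries, against 21.5% of all regions. Only in KO there were 2, at 20.8 and 21.9 kb upstream, against 22.8% of all regions. Neither was among those found only in KO at equal peak numbers.

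Of the 17 Abcg1 regions, 7 were called only in KO, against 22.8% of all regions, and 2 in all 4 libraries, against 21.5%. None of the 7 was among the regions found only in KO at equal peak numbers. The strongest of the 7, 50.9 kb downstream in an intron, had a pileup of 93 and 42 in KO1 and KO2, and one 31.2 kb downstream of 59 and 26. At the intronic region 52.7 kb downstream the pileup was 38 in WT1, 70 and 55 in KO, and it was not called in WT3; this was the Abcg1 region left only in KO at equal peak numbers. The 2 regions of Abcg1 called in every library lay 17.9 and 19.1 kb upstream, with log2 fold changes in pileup of 0.78 and 0.20 (limma adjusted p = 0.167 and 0.544).

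Npc1 and Npc2 hand cholesterol out of late endosomes, and their promoters were the most enriched of the efflux genes. Fold enrichment at the Npc2 promoter was 27.8, 20.8, 25.5 and 23.0, and at the Npc1 promoter 25.5, 13.9, 23.7 and 18.1. Neither differed past the threshold (limma adjusted p = 0.381 and 0.525). Within Npc2 the regions had differences of both signs. The intronic region 5.4 kb downstream had a pileup of 58 and 14 against 128 and 75, or 0.598, 0.7, 1.29 and 1.15 times the median, a log2 fold change of 0.92 ± 0.22 (limma adjusted p = 0.0364) that fell short of the fold threshold. The one 11.6 kb downstream had 60 and 17 against 41 and 30, or −0.73 ± 0.24 (limma adjusted p = 0.0772). Apoe and Apoc1, neighbours that encode apolipoproteins, were not called in WT3. The Apoe promoter region had a fold enrichment of 9.21 in WT1 against 4.96 and 4.27, and without WT3 it passed as lower, by 1.23 on the log2 scale (limma adjusted p = 0.0329). Another Apoe region 0.587 kb upstream was called only in KO (7 and 4.57). The one Apoc1 region had 7.52 against 5.15 and 5.45.

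The uptake and scavenging genes had 92 regions, of which 23 were tested. On pileup 2 fell, the Marco and Lpl regions above, against 4.98% of all regions. The Lpl region 73.6 kb downstream, which carries the DR4 shown above, had a pileup of 92 and 27 in WT against 54 and 53. After centring both KO libraries were the lower ones, with a log2 fold change of −0.76 ± 0.28 that did not pass (limma adjusted p = 0.0995). Both were also lower on centred fold enrichment (−0.48, limma adjusted p = 0.229). At Marco 2 more upstream regions are given on both measures. The one 27.1 kb upstream had a pileup of 40 and 14 against 23 and 19 and a log2 fold change of −1.04 ± 0.29, just outside the threshold (limma adjusted p = 0.0502), and −0.42 on fold enrichment. The one 12.8 kb upstream had a fold enrichment of 7.42 and 5.30 against 12.4 and 12.8, a log2 fold change of 0.64 ± 0.24 (limma adjusted p = 0.149), and −0.15 on pileup. A further region 74.7 kb downstream was not called in WT3 and had a pileup of 66 against 24 and 9. Without WT3 its log2 fold change was −1.56 on fold enrichment and −2.30 on pileup.

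Cd36, which encodes a receptor for oxidised LDL and long-chain fatty acids, had 6 of its 12 regions called in every library. Its promoter had a pileup of 32 and 12 against 30 and 16, and the region 3.9 kb upstream 71 and 11 against 37 and 28. Log2 fold changes in pileup over the 6 ran from −0.70 to −0.07, none past the threshold (lowest limma adjusted p = 0.0957). On fold enrichment they ran from −0.35 to 0.25. The positive value lay 7.7 kb upstream, at 9.38 and 5.19 against 11.7 and 9.76, and the others were negative. That region was among those found only in WT at equal peak numbers, so the direction there depended on the measure. Fabp4 and Fabp5 carry fatty acids within the cell. The Fabp4 promoter had a fold enrichment of 9.33 and 8.75 against 7.01 and 7.09, or 0.643 and 1.16 against 0.463 and 0.590 times the median. The groups did not overlap, and the log2 fold change was −0.73 ± 0.27 (limma adjusted p = 0.153); without WT1 it passed, at −1.15. The Fabp5 promoter had 15.3 and 6.34 against 15.2 and 13.2 (0.15, limma adjusted p = 0.698). A Fabp5 region 38.0 kb upstream ran the other way, with a pileup of 21 in WT1 against 88 and 46 and no call in WT3. Without WT3 it passed as higher on fold enrichment (1.22, limma adjusted p = 0.0357).

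Scarb1 encodes SR-BI, the receptor for HDL cholesterol, and its 4 tested regions had higher centred pileups in KO, without a call, while on fold enrichment 3 of them overlapped. The promoter region (chr5:125340263-125341251) had a pileup of 50 and 13 against 87 and 84, or 0.515, 0.65, 0.879 and 1.29 times the median. The groups did not overlap, and the log2 fold change of 0.88 ± 0.26 missed the threshold (limma adjusted p = 0.0588); on fold enrichment it was 0.18. The pileup of the other 3 regions called in all libraries was also non-overlapping and higher, with log2 fold changes of 0.47, 0.51 and 0.63 at 67.2 and 1.7 kb downstream and 17.3 kb upstream (limma adjusted p = 0.185, 0.176 and 0.0996). On fold enrichment these were −0.08, −0.16 and 0.43, so the direction depended on the measure at the first 2. A further 7 of its 16 regions were called only in KO, against 22.8% of all regions. None of these was among the regions found only in KO at equal peak numbers. An intronic one 27.6 kb downstream, called in all but WT3, had a pileup of 14 against 74 and 44 and passed as higher without WT3 (1.36 on fold enrichment, limma adjusted p = 0.0282).

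Mylip encodes IDOL, the ligase that marks the LDL receptor for breakdown and a textbook LXR target. Its region 17.9 kb upstream had the largest log2 fold change in fold enrichment of the members, at 13.3 and 5.45 against 20.9 and 21.0, or 0.93 ± 0.23 (limma adjusted p = 0.0683). Both KO libraries were high, and without WT1 the region passed (1.1). Its promoter overlapped on pileup (208 and 43 against 194 and 145). Msr1, the class A scavenger receptor, had 10 regions, and none was called in WT3; its promoter had 7.94 in WT1 and 8.49 and 6.82 in KO. The region 47.7 kb downstream in Msr1 had 10.4 against 16.9 and 14.5. Olr1, the LOX-1 receptor, had 4 regions, of which 3 intronic ones were called only in KO, against 22.8% of all regions. None of these was among the regions found only in KO at equal peak numbers. The Olr1 promoter was at 13.8 against 9.46 and 13.0. Without WT3 the log2 fold change of that promoter in pileup was −1.09. Angptl4, an inhibitor of lipoprotein lipase and a PPAR target, had a single region, at its promoter, with 11.2 against 15.0 and 12.7.

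Synthesis genes had 74 regions, and none of the 22 tested passed on either measure. On pileup 4.98% of all regions passed as lower and 2.49% as higher. The sterol genes had values of both signs. Insig1, which encodes the anchor that holds SREBPs in the endoplasmic reticulum, Lss, which encodes lanosterol synthase, and Sqle, which encodes squalene epoxidase, are given side by side; Insig1 was added after its values were seen. At the Insig1 promoter (chr5:28070746-28072190) the pileup was 363 and 66 in WT against 188 and 114, or 3.74, 3.3, 1.90 and 1.75 times the median. The groups were apart, with a log2 fold change of −0.95 ± 0.22 (limma adjusted p = 0.0323) and −0.90 ± 0.24 on fold enrichment (limma adjusted p = 0.0784). The Lss promoter had 254 and 49 against 152 and 83, or 2.62, 2.45, 1.54 and 1.28 times the median, a log2 fold change of −0.86 ± 0.22 (limma adjusted p = 0.0426), and −0.18 on fold enrichment (limma adjusted p = 0.63). The Sqle promoter lay the other way, at 233 and 55 against 436 and 234, or 2.40, 2.75, 4.40 and 3.6 times the median. Its log2 fold change of 0.63 ± 0.23 did not pass (limma adjusted p = 0.0958), and on fold enrichment it was −0.24 with overlapping groups. Hmgcs1, whose promoter carries the SRE shown above, had a promoter enrichment of 23.6 and 16.6 against 25.0 and 20.9 (−0.16, limma adjusted p = 0.694).

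The regulator genes also had values of both signs. The Srebf2 promoter had a pileup of 240 and 45 against 242 and 142, with a log2 fold change of −0.03. At the Srebf1 start site inside the gene (chr11:60210276-60210767) the pileup was 99 and 25 against 185 and 123, or 1.02, 1.25, 1.87 and 1.89 times the median. The groups did not overlap, and 0.74 ± 0.23 missed the threshold (limma adjusted p = 0.0621); on fold enrichment the libraries overlapped (0.21). The outer Srebf1 promoter with the SRE had 124 and 19 against 123 and 103 (0.35, limma adjusted p = 0.361) and −0.32 on fold enrichment. Idi1, an isomerase of the isoprenoid steps, had one region, at its promoter, with 211 and 44 against 222 and 139, a log2 fold change of 0.00.

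Among the fatty acid genes, the strongest Acaca region (chr11:84197759-84198434), 2.7 kb inside the gene for acetyl-CoA carboxylase, had a pileup of 242 and 42 against 115 and 84, or 2.49, 2.1, 1.16 and 1.29 times the median. The groups were apart and the log2 fold change was −0.90 ± 0.23 (limma adjusted p = 0.0379), short of the fold threshold. Without WT3 it was −1.43. On fold enrichment it was −0.29 (limma adjusted p = 0.426). Fasn, the fatty acid synthase gene, had 152 and 33 against 134 and 75 at its promoter (−0.36, limma adjusted p = 0.281). The 2 desaturase genes had their strongest regions outside the promoter. The Scd1 region 19.01 kb downstream had a pileup of 102 and 23 against 191 and 99, or 1.05, 1.15, 1.93 and 1.52 times the median (0.64 ± 0.23, limma adjusted p = 0.0942). The Scd2 region 9.4 kb upstream, which shares DNA with it, had 152 and 32 against 169 and 73 (−0.19, limma adjusted p = 0.632), and its groups overlapped. The main Scd1 promoter region was called in all but WT3, at 6.01 against 14.1 and 11.4. Without WT3 its log2 fold change in pileup was 1.56. Lpcat3, which puts polyunsaturated chains into phospholipids, had 20.3 and 13.1 against 15.2 and 13.9 at its promoter (−0.54, limma adjusted p = 0.177).

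The elongase gene Elovl5 had 10 regions, 6 called in every library, with log2 fold changes in pileup from −0.31 to 0.67 and none past the threshold. Elovl6 had 8, of which 3 were called only in KO, against 22.8% of all regions. None of these was among the regions found only in KO at equal peak numbers. The strongest Elovl6 region lay 4.0 kb inside the gene (13.6 in WT1, 16.5 and 10.2 in KO). Fads1, the delta-5 desaturase, had a promoter at 13.2 and 10.5 against 20.7 and 12.8. Fads2, its neighbour, was called at the promoter only in KO, at 7.25 and 5.46.

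Storage and oxidation genes had 57 regions, 19 of them tested. Only the 2 Pdk4 regions passed, as lower on pileup, against 4.98% of all regions. Dgat2, which makes triglyceride, came next after Pdk4 on fold enrichment. Its promoter (chr7:99182561-99183199) had 10.1 and 6.04 in WT against 6.31 and 5.67, or 0.692 and 0.803 against 0.417 and 0.472 times the median. Both KO libraries were low, and the log2 fold change was −0.75 ± 0.21 (limma adjusted p = 0.0881), with −0.64 on pileup (limma adjusted p = 0.0849). The nearby region 1.3 kb upstream of Dgat2, missed by WT3, had a pileup of 68 against 133 and 89. Dgat1, the other enzyme of that step, had one region with a pileup of 371 and 67 against 322 and 160 (−0.34).

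Plin2 and Plin3 coat lipid droplets. The Plin2 promoter had a fold enrichment of 7.75 and 5.32 against 10.5 and 9.74 (0.29, limma adjusted p = 0.459), and Plin3 of 17.1 and 9.56 against 18.2 and 14.4 (−0.03). Soat1, which esterifies cholesterol, had 10 regions and none called in WT3; the one 14.5 kb downstream had a pileup of 30 against 68 and 37. Lipa, the lysosomal acid lipase gene, had a promoter enrichment of 24.9 and 10.9 against 26.4 and 21.2 (0.15, limma adjusted p = 0.692). Pnpla2, the gene of the droplet lipase ATGL, had 2 regions, both called in every library, with log2 fold changes in pileup of −0.05 and 0.48.

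The mitochondrial genes were open at their promoters in all 4 libraries. Cpt1a, the gate for fatty acids into mitochondria, had 9 regions, and its promoter had a pileup of 100 and 16 against 125 and 80 (0.46, limma adjusted p = 0.2), but on fold enrichment the difference was −0.19. Its region 2.1 kb downstream had −0.48 in fold enrichment and 0.19 in pileup, so the direction depended on the measure at both. Cpt2 had 150 and 29 against 128 and 79 (−0.26, limma adjusted p = 0.438). Acadm, which encodes the medium-chain dehydrogenase, had 267 and 56 against 186 and 106 (−0.67, limma adjusted p = 0.0755), and Acadl, the long-chain form, 112 and 30 against 131 and 59 (−0.26). Hadha, of the trifunctional protein, had 55 and 11 against 39 and 22 (−0.61, limma adjusted p = 0.0938). In Cpt2, Acadm and Hadha both KO libraries were the lower ones in centred pileup, without a call; in fold enrichment Cpt2 lay the other way (0.21).

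A further 74 genes of the same pathways, listed by function, gave 292 regions, of which 97 were called in all 4 libraries and 51 only in KO (17.5%, against 22.8% of all regions). None passed on fold enrichment, and 18 of the 97 had an unadjusted p under 0.05 (limma), against 22% of all regions. On pileup 1 of the 97 passed as higher, against 2.49%, and 3 as lower, against 4.98%. The higher one was the promoter of Acadvl, the very-long-chain dehydrogenase, at 44 and 10 against 96 and 71 (1.11 ± 0.22, limma adjusted p = 0.0242). The lower ones lay 63.4 kb downstream of Lpin1, a phosphatidate phosphatase (−1.17), 26.6 kb upstream of Hilpda, a lipid droplet protein (−1.17), and at the promoter of Mbtps1, a protease that releases SREBPs (−1.19). By role, the lower calls numbered 1 of 31 tested synthesis regions and 2 of 36 storage and oxidation regions, and 0 of 9 efflux and 0 of 21 uptake regions.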

How the data were processed

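ATAC-seq peaks of 4 libraries of sorted LPMs were analysed. Per the study's methods and the submitters' processing notes, the authors trimmed reads (cutadapt 1.7), aligned them to mm10 (Bowtie2), removed duplicates, mitochondrial reads and chromosomes X and Y, called peaks in each library with MACS2 2.1.1 (q of 0.05, reads extended to 200 bp), removed blacklisted peaks, and left out samples that did not cluster with their group. The deposited peak lists give the fold enrichment at the summit, a ratio to local background, with its −log10 p-value and −log10 q-value. The deposited score column repeats the q-value and was not used. Read counts were not used here, so the count test of the study was replaced by limma on fold enrichment.

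Peaks sharing at least 1 bp were merged into 70744 regions and linked to genes by 43783 curated RefSeq transcripts of GRCm38.p6. The whole-number summit pileup was solved from fold enrichment and p-value under a Poisson model, with a pseudocount of 1 (3 peaks had no solution); it depends on sequencing depth and is no read count per region. Log2 values were centred on each library's median and fitted with limma 3.58.1 (R 4.3.3; lmFit, eBayes) over all regions called in 4 libraries, with Benjamini-Hochberg adjustment. Positive log2 fold changes are higher in LysMCre+ Rxrab fl/fl. The fit was tested on artificial data with known changes. Sequences were read from GRCm38.p6 with pysam 0.24.0.

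The members, role groups, marker lists and pathway lists were chosen with earlier results of these data known. Values are given for members with a called region, with a region called in 1 genotype alone at equal peak numbers, or with no region in a genotype, for the 3 of each role group with the most enriched promoters or the most regions, and for 6 that the study names (Abca1, Abcg1, Lpl, Fabp4, Fabp5 and Msr1); Insig1, Srebf1, Srebf2, Lpcat3, Fasn, Scd2, Idi1, Apoe, Apoc1, Fads1, Fads2, Dgat1, Plin3, Pnpla2, Acadl and the 4 called genes outside the list were named after their values were seen. The alternatives were a stricter q, equal peak numbers, summit windows, other links, centring, variance and promoter settings, summit pileup, and each library left out; leaving out libraries in the pileup fit was added after seeing the data.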

Additional observations from a re-analysis of the deposited data

How the results depend on the processing

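No paired analysis was possible because the groups share fewer than 2 replicate numbers. The counts moved with the number of peaks taken: at equal peak numbers, regions found only in LysMCre+ Rxrab fl/fl went from 62 to 7, those found only in Rxrab fl/fl from 0 to 12 and those in all 4 libraries from 80 to 52, and windows about the summit gave 1 found only in Rxrab fl/fl. Leaving out a library gave 62 to 132 and 0 to 10 for the first 2 counts, with no share over all regions computed. Calls went from 0 on fold enrichment to 4 on summit pileup and 8 (7 higher, 1 lower) over regions called in at least 2 libraries, where a missing peak lowers the number of libraries fitted; leaving out a library gave 0 to 5 on fold enrichment and 0 to 18 on pileup, with both upper ends from the fit without WT3 over 150 regions in place of 80, where 1 of the 5 and 11 of the 18 lay among the 80. The median log2 fold change went from −0.18 to −0.091 with quantile normalization, 0.18 without centring (0.28 over all regions) and 0.045 over regions called in at least 2 libraries (0.20 over all). The cause was not tested.

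Some single regions changed sign. Without centring, log2 fold changes in fold enrichment became 0.060 at Marco 19.3 kb upstream, 0.080 at Acaca, 0.21 at Hmgcs1, 0.19 at Lss, 0.12 at Scd2 and 0.13 at Sqle. On pileup they became −0.15 at Marco 12.8 kb upstream, 0.63 at Sqle and 0.19 at Cpt1a 2.1 kb downstream. Leaving out a library gave −0.20, −0.13 and −0.088 at Abca1 1.1 kb downstream and −0.083 at Scarb1, and on pileup −0.54 to 0.19 at Marco 12.8 kb upstream, −0.58 to 0.10 at Scd2 and −0.24 to 0.29 at Cpt1a. Of the other values for named regions, 321 kept direction and side of the threshold, 14 passed it and 7 no longer did. Having 2 libraries a group and a median summit pileup of 20 in WT3 limits the precision of these values.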
